A study of Mus musculus with 3 samples.

Results

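The enzymes that cut the extracellular matrix and the proteins that hold them in check were followed in the developing mouse trunk. The members were all genes whose symbol was Mmp, Adamts, Adamtsl or Timp followed by a number, with a letter after it where there was one, and 51 of the 33696 genes counted met this rule. They were 23 matrix metalloproteinase genes (Mmp), 19 Adamts proteinase genes, 5 Adamts-like genes (Adamtsl) and 4 genes for tissue inhibitors of metalloproteinases (Timp). Expression had been measured by single-cell RNA sequencing (10x Chromium 3′ kit) of dissected C3 to T2 trunks at the embryonic stages E11.5, E12.5 and E13.5. Each stage was 1 library, a pool of cells from 3 littermates freed with TrypLE, and forelimbs and thoracic organs had been taken away while the neural tube stayed in. The labels give no genotype, strain or treatment for these embryos. Because each stage had 1 library, no test between stages was possible, every interval below covers counting error only, and stage cannot be told apart from litter, dissection or library.

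Matrix metalloproteinases are zinc enzymes that cut collagens, gelatins, laminins and many other proteins outside the cell. Most are made as inactive proenzymes, and some sit in the cell membrane, where Mmp14 with Timp2 activates pro-Mmp2. Adamts proteinases carry thrombospondin repeats and include the enzymes that trim the amino-terminal propeptides of fibrillar procollagens and those that cleave the proteoglycans aggrecan and versican. Adamts-like proteins share the repeats but lack the catalytic domain, and the Timp proteins block the active sites of metalloproteinases.

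Cells were barcodes with 4000 or more UMIs (unique molecular identifiers, each standing for 1 captured RNA molecule), which gave 6334, 6201 and 7594 cells from the first stage to the last. Levels are given as CPM, the UMIs of a gene divided by all UMIs of a group of cells and multiplied by 1000000, with exact Poisson 95% intervals. Because the kit reads 3′ ends, CPM counts molecules and is not divided by gene length. Cell classes were set by UMIs of marker genes, none of them a member, and the names below stand for marker-defined, mesenchyme-like, neuron-like and other classes. Mesenchyme-like cells, with at least 3 of 8 markers such as Pdgfra, Prrx1 and Col1a1, numbered 2217, 2738 and 4474 at the 3 stages, and all 8 markers were at least 2-fold higher there than in the other cells of each library. So were all markers of the other classes and subclasses, except that dermal-like cells had 5 and 4 of 6 markers 2-fold higher and meningeal-like cells 4, 3 and 4 of 5. In dermal-like cells Lum fell short at E12.5 and E13.5 (log2 ratios 0.64 and 0.75) and Clec3b at E13.5 (0.14). In meningeal-like cells Crabp2 was lower at E11.5 (-1.04) and level at E12.5 (0.01), and Ogn fell short at E12.5 (0.58) and E13.5 (0.25). Cells were classed by the markers themselves, so the higher levels of markers follow largely from that choice and do not test the class names. At E13.5, 260 of 268 dermal-like, 79 of 104 meningeal-like, 71 of 114 tendon-like and 26 of 64 chondrogenic-like cells had just the number of markers needed. A further 768 and 1054 mesenchyme-like cells were 1 marker short of the dermal-like and meningeal-like subclasses, so contrasts between subclasses depend on these cuts. The median depth of a cell was 12494, 11046 and 10261 UMIs. A UMI of Xist was found in 66.0%, 27.1% and 90.5% of cells, so the pools differed in their mix of sexes. Few cell barcodes were shared between libraries, between 10 and 16 for each pair. Free RNA, estimated from collagen UMIs in blood cells, made up 6.91%, 5.92% and 5.68% of a cell's UMIs, and an estimate from globins in other cells gave 2.08%, 1.62% and 2.24%.

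Of the 51 members, 38 had 50 or more UMIs over the 20129 cells. Mmp1a, Mmp1b, Mmp7, Mmp10 and Adamts13 had none, and Mmp3, Mmp8, Mmp12, Mmp13, Mmp20, Mmp21, Mmp27 and Mmp28 had between 1 and 35. These 13 include all 4 interstitial collagenases (Mmp1a, Mmp1b, Mmp8 and Mmp13) and the stromelysins Mmp3 and Mmp10. A count of 0 allows up to 0.0325, 0.0372 and 0.0336 CPM over the cells of the 3 libraries, on a limit of 3 UMIs. The 12 members with the most UMIs were Timp2, Timp3, Mmp14, Mmp2, Adamtsl1, Adamts1, Mmp11, Adamts9, Mmp16, Adamts10, Timp1 and Adamts5, and they held 80.5% of the members' 140438 UMIs.

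The sequences upstream of the members show which letters the undetected genes share. RefSeq promoters (GRCm38.p6) were at hand for 36 of the 51 members, including all 13 with under 50 UMIs, and the 250 bases before each start were searched on both strands. All members without a promoter sequence, among them Mmp2, Mmp9, Adamts5 and Adamtsl1, had 50 or more UMIs. Only 23 of the 38 members with that many UMIs could therefore be searched, and the motifs of the rest are not known here. The AP-1 motif TGANTCA, bound by Fos and Jun proteins, stood in 8 of those 13 (Mmp1a, Mmp1b, Mmp3, Mmp7, Mmp10, Mmp12, Mmp13 and Mmp20) and in 0 of the 23 others, against 7.82% of all 27025 genes in the table. The GC box GGGCGG stood in 1 of the 13 (Mmp28) and in 19 of the 23, against 35.4% of all genes. TATAAA stood in 8 of the 13 and in 2 of the 23, against 14.3% of all genes. The 8 genes with the AP-1 motif are neighbours in a cluster of Mmp genes on chromosome 9 and share ancestry, so they are not independent cases. Shown first are the 120 bases before the start of 4 members from that cluster, with the AP-1 motif in capitals. They lie at chr9:7445702-7445821 (plus strand) for Mmp3, chr9:7502222-7502341 (plus strand) for Mmp10, chr9:7272394-7272513 (plus strand) for Mmp13 and chr9:7464021-7464140 (plus strand) for Mmp1a.
Mmp3: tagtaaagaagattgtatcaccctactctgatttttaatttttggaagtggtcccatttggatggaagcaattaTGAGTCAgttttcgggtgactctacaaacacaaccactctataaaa
Mmp10: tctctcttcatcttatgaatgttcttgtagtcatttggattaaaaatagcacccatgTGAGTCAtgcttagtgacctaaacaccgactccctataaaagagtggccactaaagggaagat
Mmp13: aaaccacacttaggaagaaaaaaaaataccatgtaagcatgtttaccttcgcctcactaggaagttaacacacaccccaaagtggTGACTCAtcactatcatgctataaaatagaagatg
Mmp1a: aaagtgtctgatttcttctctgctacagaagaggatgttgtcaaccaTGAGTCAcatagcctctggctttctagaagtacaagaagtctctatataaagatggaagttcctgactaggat
The same 120 bases are shown for 4 members among the 12 with the most UMIs, with each GC box, read on either strand, in capitals. They lie at chr14:54431478-54431597 (plus strand) for Mmp14, chr10:75932503-75932622 (minus strand) for Mmp11, chr16:85803114-85803233 (minus strand) for Adamts1 and chr6:92943535-92943654 (minus strand) for Adamts9.
Mmp14: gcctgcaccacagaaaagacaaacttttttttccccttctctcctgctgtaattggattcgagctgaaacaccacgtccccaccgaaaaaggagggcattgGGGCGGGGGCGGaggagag
Mmp11: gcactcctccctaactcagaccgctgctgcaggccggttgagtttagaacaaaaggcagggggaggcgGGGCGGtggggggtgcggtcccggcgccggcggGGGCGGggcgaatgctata
Adamts1: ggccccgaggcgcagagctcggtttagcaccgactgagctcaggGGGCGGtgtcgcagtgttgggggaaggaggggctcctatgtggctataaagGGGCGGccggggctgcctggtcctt
Adamts9: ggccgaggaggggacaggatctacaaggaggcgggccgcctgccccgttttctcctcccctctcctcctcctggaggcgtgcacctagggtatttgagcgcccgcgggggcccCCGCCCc
A match describes the letters of the window and does not show that a factor binds there.

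In mesenchyme-like cells the 51 members together had 520.9 CPM (513 to 529) at E11.5, 920.3 CPM (910.4 to 930.3) at E12.5 and then 984 CPM (975 to 992). In erythroid-like cells, which should lack most of these genes, the same sum was 5.64, 11.8 and 15.4 CPM. The Mmp sum in mesenchyme-like cells was 157, 273 and 265 CPM and the Adamts sum 183, 292 and 323 CPM. The Adamtsl sum was 15.4, 73.2 and 78.5 CPM, carried mostly by Adamtsl1. The Timp sum was 166, 282 and 318 CPM, so that there were 1.06, 1.03 and 1.20 Timp UMIs for each Mmp UMI.

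**Figure D1:**
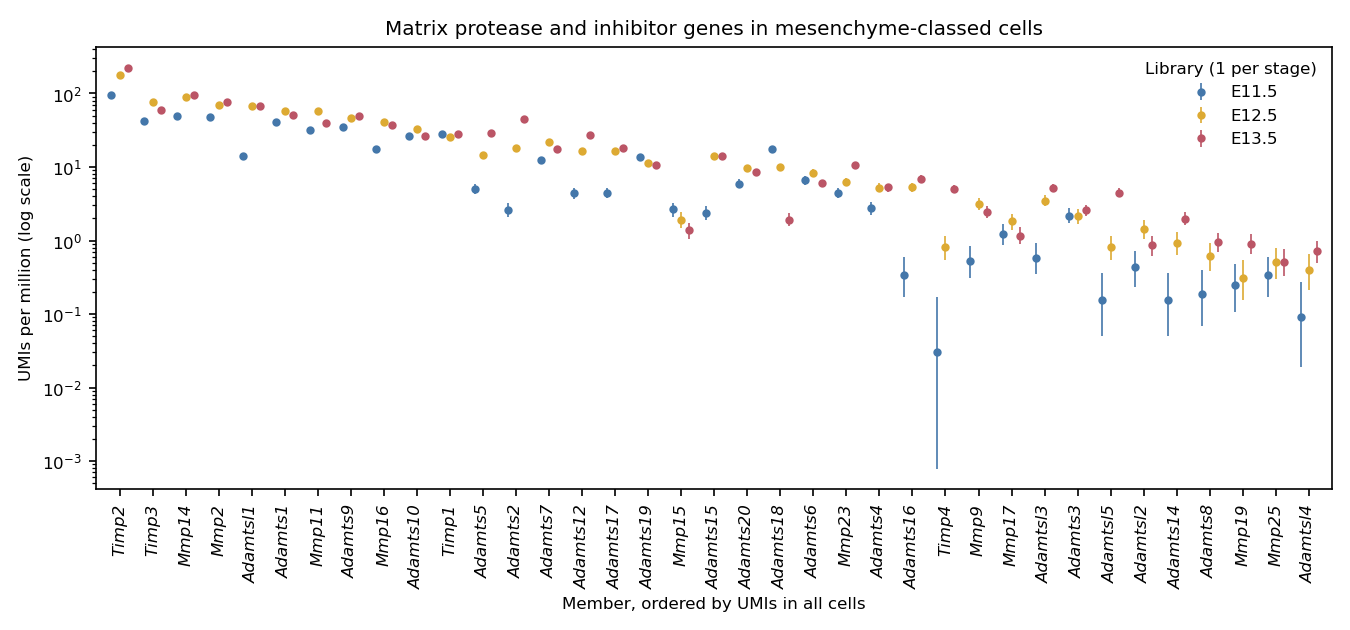
Levels of members with 50 or more UMIs in mesenchyme-like cells (CPM, log scale) in the library of each stage. Points are 1 library each and bars are exact Poisson 95% intervals (counting error only); Timp2 stands highest at each stage, and Adamts18 is the member whose points descend steeply, from 17.7 to 1.93 CPM.

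Between E11.5 and E12.5, 15 members were at least 2-fold higher in mesenchyme-like cells and 0 were at least 2-fold lower, of 35 with 20 or more UMIs over both libraries. Among all 15640 genes with that many UMIs, 12.3% were called higher and 2.35% lower, 14.6% in either direction. The median log2 ratio was 0.88 over the 35 members and 0.14 over all genes. A low member that reaches 20 UMIs only through the library where it is high had to differ. Of the members called higher, Adamts8, Adamts14, Adamts16, Adamtsl2, Adamtsl3, Adamtsl5, Mmp9 and Timp4 had under 20 UMIs at E11.5 and 20 or more at E12.5. With 50 UMIs required over both libraries, 11 of 30 members were higher, against 10.2% of genes. That minimum does not remove the limit, since it is also on the sum. Adamts16 (11 and 188 UMIs), Mmp9 (17 and 113), Adamtsl3 (19 and 125) and Adamtsl2 (14 and 51) reached it only through E12.5. Between E12.5 and E13.5, 5 of 37 members were higher and 1 was lower, against 4.18% and 4.97% of 16205 genes (9.15% in either direction), and the medians were 0.08 and -0.10. Among mesenchyme-like cells holding Xist but no Y-linked UMI, 10 of 29 members were higher and 1 lower at the first step (Mmp15, log2 ratio -1.19), against 9.39% and 2.41% of genes in those cells. At the second step 7 of 37 were higher and 1 lower, against 5.35% and 5.32%. With cells of the named mesenchymal subclasses left out, 14 of 34 members were higher and 0 lower (11.6% and 2.84% of genes), then 6 of 37 higher and 1 lower (4.16% and 4.69%).

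**Figure D2:**
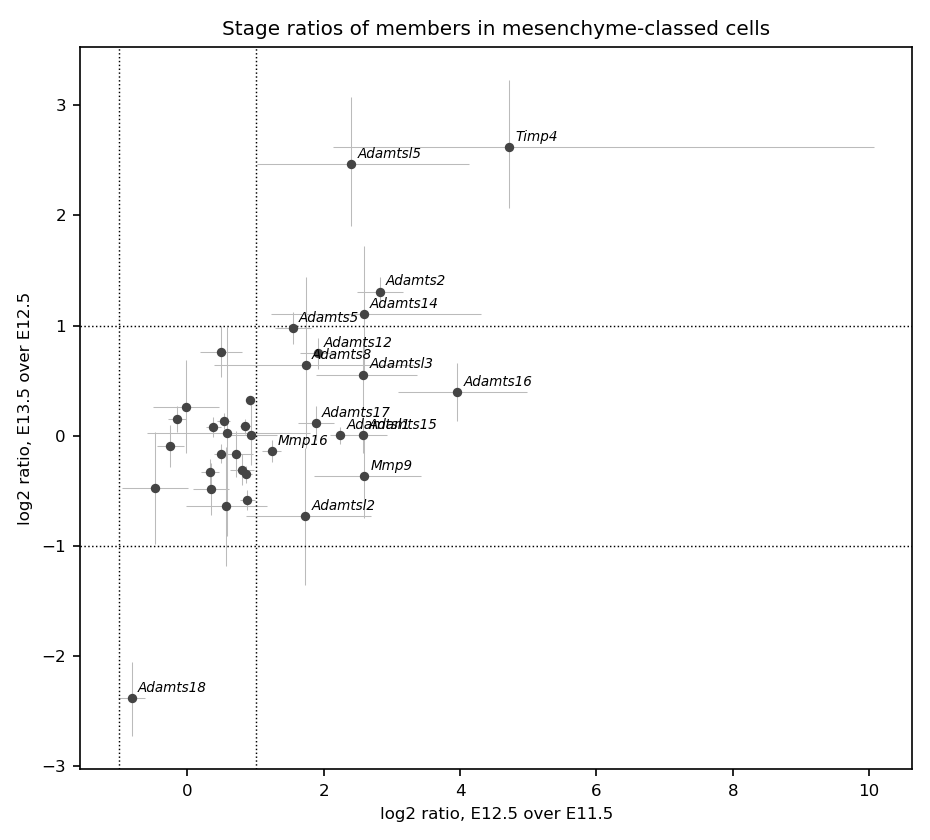
Log2 ratios of the 35 members compared at both steps in mesenchyme-like cells, E12.5 over E11.5 on the x axis and E13.5 over E12.5 on the y axis, 1 library per stage. Bars are exact 95% intervals for counting error, dotted lines mark 2-fold, and members past it are named: Adamts2, Adamts14, Adamtsl5 and Timp4 stand at the upper right and Adamts18 stands alone at the bottom.

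Among the inhibitors, Timp2, which blocks most Mmps and helps Mmp14 activate pro-Mmp2, had the highest level. In mesenchyme-like cells its level was 95.2 CPM (91.9 to 98.6) at E11.5, 179.7 CPM (175 to 184) at E12.5 and 224 CPM (220.2 to 229) at E13.5. Its log2 ratio was 0.92 (0.85 to 0.98) at the first step and 0.32 (0.28 to 0.36) at the second, both under the 2-fold rule. The intervals of the 3 levels did not overlap, but they leave out differences between libraries. The share of all genes with such intervals is not given. Timp2 was also high in macrophage-like cells, at 139.6 CPM at E12.5 and 178 CPM at E13.5, where Mmp14 was at 1.18 and 2.17 CPM and Mmp2 at 1.77 and 2.44 CPM. In the neuron-like class Timp2 was between 16.2 and 19.5 CPM, and in the erythroid-like class between 0.664 and 3.499 CPM. Macrophage-like cells thus held this inhibitor with few UMIs of both enzymes.

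Timp3, which binds to the matrix and also inhibits Adamts proteinases, had its highest level in Schwann and neural crest-like cells, identified by Sox10 and other markers. There it stood at 268 CPM (125 cells) in the first library, 439 CPM (56 cells) in the second and 250.6 CPM (96 cells) in the third. The other classed cells of the same libraries had 32.6, 52.7 and 48.4 CPM, which gives log2 ratios of 3.04 (2.92 to 3.15), 3.06 (2.90 to 3.21) and 2.37 (2.19 to 2.56). The class stood past 4-fold above the rest at each stage. Endothelial-like cells had 206 CPM at E11.5 and 193 CPM at E13.5. Mesenchyme-like cells had 42.0, 76.2 and 59.8 CPM, and macrophage-like cells had 1.77 and 0.814 CPM. Within the mesenchyme Timp3 differed by subclass at E13.5, with 150.5 CPM in chondrogenic-like, 131 CPM in meningeal-like and 129 CPM in tendon-like cells against 16.0 CPM in dermal-like and 6.07 CPM in brown adipose precursor-like cells. In neural progenitor-like cells Timp3 was 14.3 CPM (12.1 to 16.6) at E11.5 and 85.1 CPM (75.8 to 95.2) at E12.5.

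Timp1, a soluble inhibitor, moved by under 2-fold in mesenchyme-like cells, at 28.4, 25.6 and 28.4 CPM. In mural-like cells, which wrap vessels, it was 33.6 CPM (23.5 to 46.5) at E12.5 and 115 CPM (95.04 to 138) at E13.5, in 54 and 60 cells. Timp4 was represented in mesenchyme-like cells by 1 UMI (0.0308 CPM) at E11.5, 29 UMIs (0.812 CPM) a day later and 244 UMIs (5.00 CPM) at E13.5. The log2 ratio was 4.72 (2.13 to 10.08) and then 2.62 (2.06 to 3.23). The highest Timp4 level of any class was in brown adipose precursor-like cells at E13.5, and neural progenitor-like cells had 0.354 CPM at E11.5 and 17.6 CPM (13.54 to 22.6) at E12.5. Muscle progenitor-like cells had 0 UMIs at E11.5, which allows up to 1.13 CPM, and then 6.68 and 7.55 CPM. Droplets of 50 to 500 UMIs, which hold free RNA, had 0.348, 1.82 and 3.82 CPM of Timp4, so the 2 earlier mesenchymal levels lay below that of free RNA.

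The genes Timp1, Timp4 and Timp3 lie inside the synapsin genes Syn1, Syn2 and Syn3 in the RefSeq annotation, so reads could be shared where counting ignores strand. The levels of each pair were therefore set side by side. Neuron-like cells had 15.9, 24.3 and 15.5 CPM of Syn1 and at most 0.963 CPM of Timp1, while mesenchyme-like cells had at most 0.430 CPM of Syn1. Neuron-like cells had 11.2, 21.99 and 13.7 CPM of Syn2 and between 0.894 and 1.83 CPM of Timp4. In mesenchyme-like cells Syn2 was higher at each later stage, as Timp4 was, with 0.400, 2.04 and 3.83 CPM. In neural progenitor-like cells Syn2 was 3.63 CPM at E11.5 and 12.9 CPM at E12.5, between which Timp4 went from 0.354 to 17.6 CPM. In mesenchyme-like cells Syn3 had 1.57, 3.73 and 2.38 CPM beside the far higher Timp3. Schwann and neural crest-like cells had 6.99, 23.0 and 10.7 CPM of Syn3 and 268, 439 and 250.6 CPM of Timp3. Both genes were highest at E12.5 in each of these classes. Neuron-like cells had 1.72, 5.08 and 3.66 CPM of Syn3. Whether reads were assigned to the right gene of each pair was not tested.

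**Figure D3:**
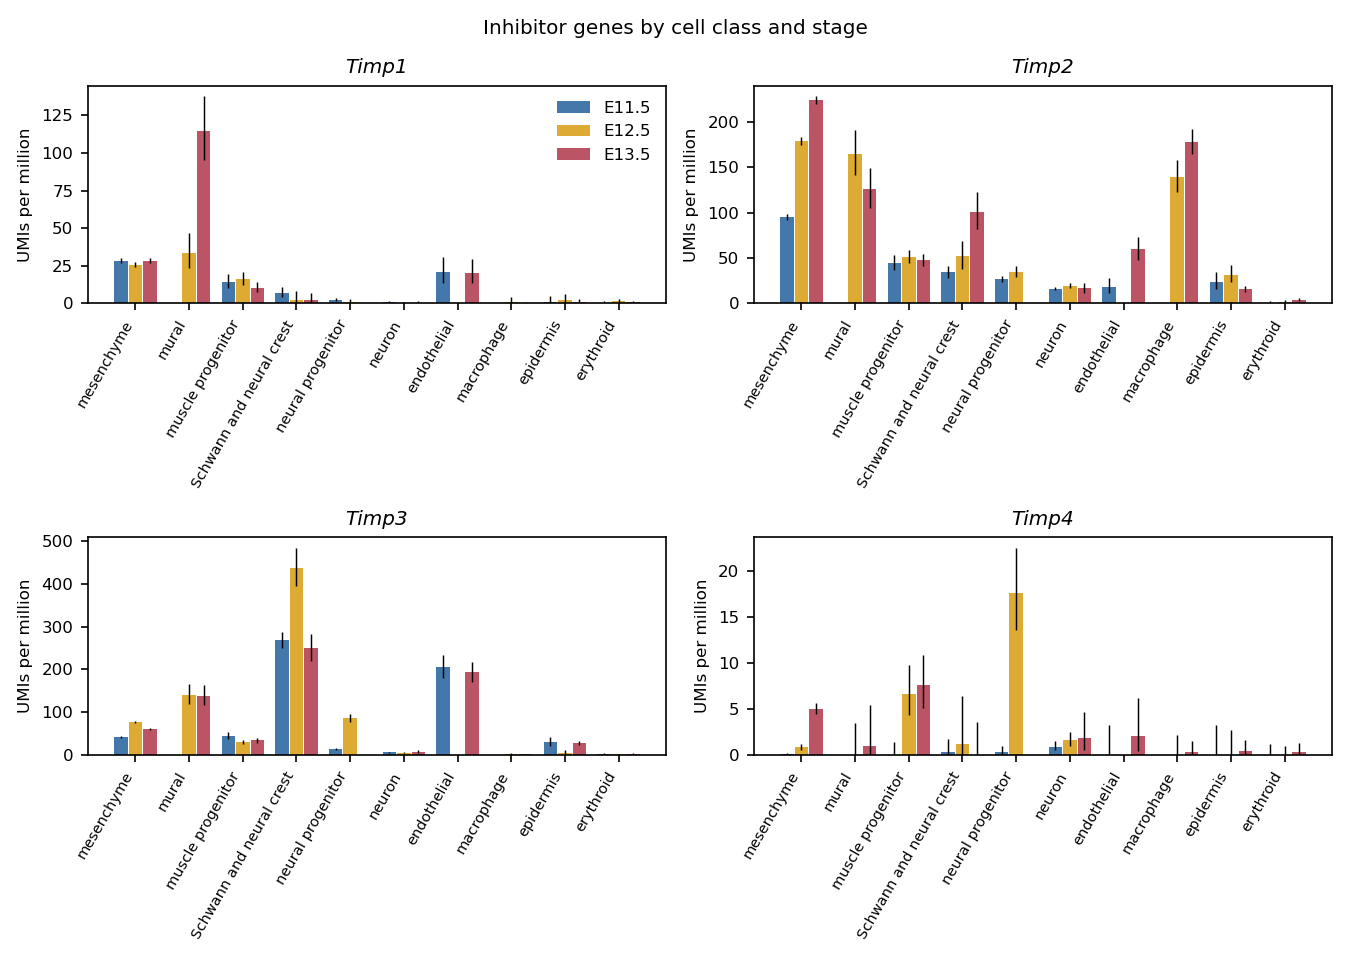
Levels of the 4 Timp genes (CPM, linear axes from 0) by cell class, with 1 bar per library and exact Poisson 95% intervals. Timp2 is high in mesenchyme-like and macrophage-like cells, Timp3 in Schwann and neural crest-like and endothelial-like cells, Timp1 in mural-like cells at E13.5 and Timp4 in neural progenitor-like cells at E12.5; classes under 50 cells and mesenchymal subclasses are not drawn.

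Of the gelatinases, which cut denatured collagen, Mmp2 was abundant in mesenchyme-like cells and Mmp9 in mural-like cells. Mmp2 stood at 47.7 CPM (45.3 to 50.1), 68.9 CPM (66.2 to 71.6) and 75.6 CPM (73.2 to 78.1) in mesenchyme-like cells and at 11.3, 13.8 and 16.1 CPM in the other classed cells. The log2 ratio between them was 2.08, 2.32 and 2.23, past 4-fold in every library. Small classes of other cells reached the same level, with 85.0 and 89.4 CPM in Schwann and neural crest-like cells at E12.5 and E13.5 and 75.4 CPM in mesothelium-like cells at E11.5. Mmp9 was 0.523, 3.17 and 2.46 CPM in mesenchyme-like cells, past 2-fold higher at E12.5 than at E11.5. At E11.5 free RNA held at least as much of it as all cells together. In mural-like cells it was 44.8 CPM at E12.5 and 47.1 CPM at E13.5, with log2 ratios to the other cells of 4.65 (4.14 to 5.14) and 4.21 (3.72 to 4.67). Macrophage-like cells had 3 UMIs of Mmp9 at E12.5 (1.77 CPM) and 72 at E13.5 (19.5 CPM), a log2 ratio of 3.47 (1.86 to 5.78).

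The membrane-type Mmps divided among cell classes. Mmp14 (MT1-MMP) was 49.9 CPM (47.5 to 52.4), 90.1 CPM (87.1 to 93.3) and 95.6 CPM (92.9 to 98.4) in mesenchyme-like cells. Its log2 ratios were 0.85 (0.77 to 0.94) and 0.08 (0.02 to 0.15), and mural-like cells held 132 and 119.8 CPM. Mmp16 (MT3-MMP) went from 17.5 to 41.1 and 37.3 CPM in mesenchyme-like cells, and its first log2 ratio, 1.24 (1.10 to 1.38), was past 2-fold. Mmp24 (MT5-MMP) had its UMIs mainly in neuron-like cells, with 13.3, 17.5 and 18.7 CPM in neuron-like cells against 0.133, 0.275 and 0.183 CPM elsewhere, log2 ratios of 6.64, 5.99 and 6.68. Mmp24 was richer in free RNA than in cells at E11.5 and E13.5, where neuron-like cells made up 19.5% and 4.08% of the cells.

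Mmp15 (MT2-MMP) was at 24.5, 96.5 and 91.3 CPM in Schwann and neural crest-like cells. In endothelial-like cells it was at 33.9 CPM at E11.5, above the Schwann and neural crest-like level, and at 44.8 CPM at E13.5, below it. Mesenchyme-like cells had only 2.64, 1.90 and 1.37 CPM of it. Mmp17 (MT4-MMP), held in the membrane by a lipid anchor, had 2.86, 28.7 and 38.9 CPM in Schwann and neural crest-like cells, with log2 ratios to the other cells of 3.90 (3.23 to 4.53) at E12.5 and 5.56 (4.95 to 6.15) at E13.5. Mmp25, the other lipid-anchored enzyme, had 94 UMIs in all, and its level in endothelial-like cells was 8.68 CPM from 10 UMIs at E11.5 and 4.201 CPM from 6 UMIs at E13.5.

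The 3 partners of Mmp2 activation were looked for in the same cell after each cell had been thinned to 4000 UMIs. A UMI of Mmp2, Mmp14 and Timp2 together was found in 33 of 2217 mesenchyme-like cells of the first stage (1.49%, exact binomial interval 1.03 to 2.08), 110 of 2738 of the second (4.02%, 3.31 to 4.82) and 254 of 4474 of the third (5.68%, 5.02 to 6.396). The product of the 3 single-gene shares in the thinned cells was 1.13%, 3.55% and 4.53%, not far below the joint shares. The unthinned shares were 17.5%, 30.8% and 26.2%, at median depths of 13483, 11854.5 and 9794 UMIs. Both scales put E11.5 lowest, but they order E12.5 and E13.5 differently. No thinned cell of the erythroid-like, neuron-like or macrophage-like class had all 3, and the exact binomial upper limit was 0.694% for the 530 erythroid-like cells at E13.5. With all UMIs 3, 2 and 2 neuron-like cells of the 3 libraries had all 3, as did 1 erythroid-like and 1 macrophage-like cell at E13.5. Of thinned macrophage-like cells at E13.5, 45.4% held Timp2, and Mmp2 and Mmp14 were in 0.709% each. At E13.5 the share was 18.8% (10.1 to 30.5) in 64 chondrogenic-like cells and 10.5% (5.56 to 17.7) in 114 tendon-like cells, against 3.36% (1.55 to 6.28) in 268 dermal-like cells.

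**Figure D4:**
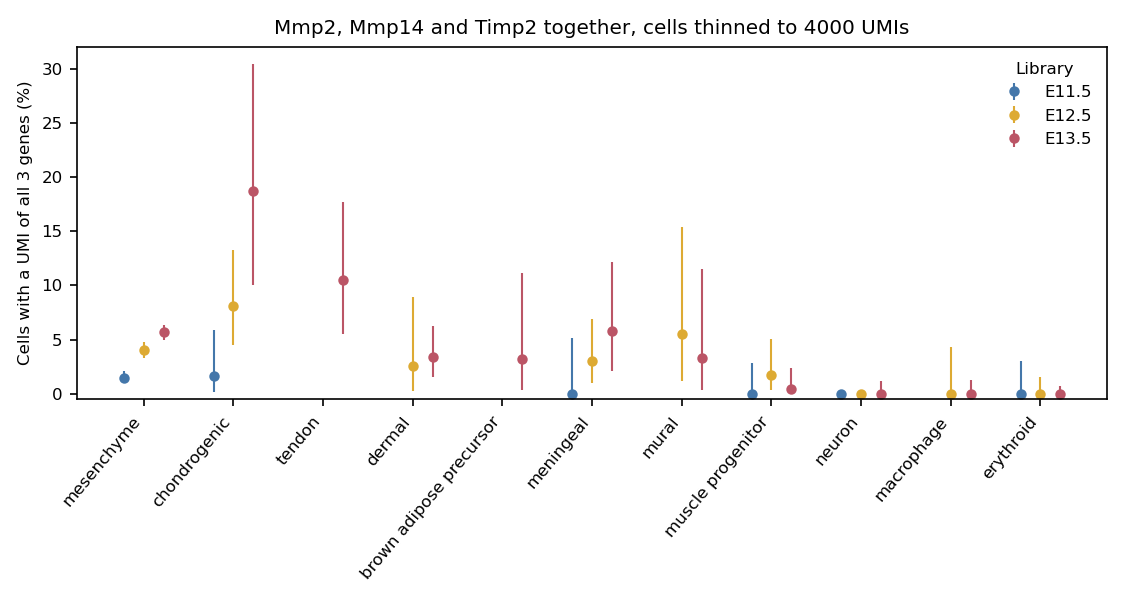
Share of cells with a UMI each of Mmp2, Mmp14 and Timp2 after thinning every cell to 4000 UMIs, by class and library, with exact binomial 95% intervals (counting error only). Chondrogenic-like cells at E13.5 stand at 18.8% and erythroid-like cells at 0 in the 3 libraries.

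Of the remaining Mmps, Mmp11 (stromelysin-3) had the most UMIs. Its level in mesenchyme-like cells was 31.8, 58.5 and 39.2 CPM, highest at E12.5, with log2 ratios of 0.88 (0.77 to 0.99) and -0.58 (-0.67 to -0.49). Between E12.5 and E13.5 it was past 2-fold lower in epidermis-like cells (42.6 to 15.5 CPM, log2 ratio -1.46) and mural-like cells (72.8 to 26.5 CPM, log2 ratio -1.46). Mmp23 was at 4.46, 6.25 and 10.6 CPM in mesenchyme-like cells and at 19.3 CPM in mesothelium-like cells at E11.5. Mmp19 reached 44 UMIs in mesenchyme-like cells at E13.5 against 11 at E12.5, a log2 ratio of 1.55 (0.57 to 2.65) that was 0.96 when cells were thinned. The 35 UMIs of Mmp8, the neutrophil collagenase, lay mostly in 1 library, with 27 of them at E12.5.

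Of the 3 procollagen N-proteinases, which trim fibrillar procollagens before fibrils form, 2 were higher at E12.5 than at E11.5, against 12.3% of all genes. The same 2 were among the 5 members higher at E13.5 than at E12.5, against 4.18% of all genes. Adamts2 was represented in mesenchyme-like cells by 84 UMIs (2.58 CPM, 2.06 to 3.20) at E11.5, 653 UMIs (18.3 CPM, 16.9 to 19.7) a day later and 2212 UMIs (45.3 CPM, 43.5 to 47.3) at E13.5. The log2 ratios were 2.82 (2.49 to 3.17) and 1.31 (1.18 to 1.44), which makes E13.5 17.5-fold higher than E11.5. The same order appeared in cells of named subclasses, with 1.16, 15.0 and 47.7 CPM in chondrogenic-like cells and 2.15, 21.0 and 46.4 CPM in meningeal-like cells. Adamts14 followed at a lower level, 0.154, 0.924 and 1.99 CPM, with log2 ratios of 2.59 (1.22 to 4.30) and 1.10 (0.52 to 1.72). At the first step Adamts14 had 5 and 33 UMIs, so it reached 20 only through E12.5. It was not compared there when 50 were required. Adamts3 stayed at 2.18, 2.16 and 2.58 CPM. Outside the mesenchyme, Adamts2 was 18.3 CPM from 21 UMIs in epidermis-like cells at E11.5 and then had 1 UMI at each later stage. Those E11.5 epidermis-like cells were also richer in Krt8, found in 82.1% of them against 31.2% and 4.27% later, and the part of this in the difference was not tested.

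Among the 7 Adamts enzymes that cleave proteoglycans, 3 were at least 2-fold higher at E12.5 than at E11.5 and 0 passed 2-fold in the next step, against 12.3% and 4.18% of all genes called higher. Adamts15 rose from 2.40 to 14.3 CPM and stayed at 14.3 CPM, with a first log2 ratio of 2.57 (2.23 to 2.93). Adamts5 (aggrecanase-2) was 5.01, 14.6 and 28.8 CPM, with log2 ratios of 1.54 (1.29 to 1.81) and 0.98 (0.83 to 1.13), the latter just under the rule, and among cells holding Xist but no Y-linked UMI the second was 1.10. Adamts8 had only 6, 22 and 47 UMIs, and its first log2 ratio was 1.74 (0.39 to 3.33). Free RNA held at least as much Adamts8 as the cells of all classes together at E11.5 and E12.5. Adamts1 (40.7, 57.1 and 51.0 CPM) and Adamts9 (35.5, 46.1 and 48.7 CPM) were already high at E11.5. Adamts4 was 2.74, 5.24 and 5.27 CPM and Adamts20 5.94, 9.69 and 8.63 CPM.

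These enzymes also parted by cell class. Adamts9 was past 4-fold higher in mesenchyme-like cells than elsewhere in every library, with log2 ratios of 2.63, 3.38 and 3.11. Among the 7 classes with 50 cells at each stage, Adamts5 was highest in Schwann and neural crest-like cells, at 27.6 CPM, then 168 CPM and 124 CPM, with log2 ratios to the other cells of 2.25 (1.90 to 2.59), 3.78 (3.52 to 4.03) and 2.56 (2.28 to 2.82). Mesothelium-like cells, present at E11.5, had 29.5 CPM of it. Adamts1 was also highest in Schwann and neural crest-like cells among those 7 classes, at 76.6, 88.4 and 101 CPM. Adamts20, which acts in pigment cell migration, was 32.4 CPM at E12.5 and 20.9 CPM at E13.5 in dermal-like cells against 7.57 CPM in the rest of the mesenchyme at E13.5. Tendon-like cells had little Adamts1 (16 UMIs, against 52.1 CPM in the rest, log2 ratio -2.12, -2.93 to -1.42).

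Adamts18 was the 1 member past 2-fold lower between E12.5 and E13.5. Its level in mesenchyme-like cells was 17.7 CPM (16.3 to 19.3), then 10.1 CPM (9.04 to 11.2) and last 1.93 CPM (1.56 to 2.36). These intervals did not overlap, but they cover counting error and not differences between libraries. The log2 ratio was -0.82 (-1.01 to -0.63) and then -2.38 (-2.73 to -2.05), and among cells holding Xist but no Y-linked UMI the second was -2.48. In epidermis-like cells Adamts18 was 23.6 CPM, 23.8 CPM and 11.9 CPM, so that at E13.5 it was higher there than in mesenchyme-like cells. Chondrogenic-like cells had 0, 1 and 8 UMIs of Adamts18 (a count of 0 allows up to 1.74 CPM at E11.5), and meningeal-like cells 20, 24 and 1.

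Of 8 other Adamts enzymes with enough UMIs, 3 were higher at the first step, against 12.3% of all genes. Adamts16 went from 0.338 to 5.27 CPM, a log2 ratio of 3.96 (3.09 to 4.99), and stood at 6.93 CPM at E13.5. Adamts12 was 4.37, 16.4 and 27.6 CPM, with log2 ratios of 1.91 (1.65 to 2.19) and 0.75 (0.61 to 0.89), and was 13.3, 47.1 and 33.0 CPM in Schwann and neural crest-like cells. Adamts17 was 4.46, 16.5 and 17.9 CPM, with a first log2 ratio of 1.89 (1.62 to 2.16). Adamts6, Adamts7, Adamts10 and Adamts19 moved by less than 2-fold at each step. Adamts6 was 6.61, 8.40 and 6.004 CPM, Adamts7 was 12.55, 21.8 and 17.6 CPM and Adamts19 was 13.6, 11.4 and 10.7 CPM, while Adamts10, which binds fibrillin, was 26.4, 33.2 and 26.4 CPM. In 114 tendon-like cells at E13.5 Adamts6 was 21.7 CPM against 5.56 CPM in the rest of the mesenchyme, a log2 ratio of 1.97 (1.36 to 2.52).

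All 4 of the Adamts-like genes with enough UMIs were at least 2-fold higher at E12.5 than at E11.5, against 12.3% of all genes. Adamtsl2 (14 and 51 UMIs), Adamtsl3 (19 and 125) and Adamtsl5 (5 and 29) reached 20 UMIs only through the later library, and Adamtsl5 was not compared when 50 were required. Adamtsl1 went from 14.2 CPM (12.9 to 15.5) to 67.1 CPM (64.4 to 69.8), a log2 ratio of 2.24 (2.10 to 2.39), and was 67.3 CPM (65.0 to 69.6) at E13.5. It was past 2-fold higher at the first step in other classes too, going from 11.3 to 103.9 CPM in epidermis-like cells and from 15.6 to 43.2 CPM in neuron-like cells. Adamtsl3 was 0.584, 3.501 and 5.14 CPM and reached 20.2 CPM in tendon-like cells at E13.5. Adamtsl5 was 0.154, 0.812 and 4.49 CPM, with log2 ratios of 2.40 (1.02 to 4.13) and 2.47 (1.90 to 3.08). Adamtsl2, which binds a latent TGF-beta protein, was 0.431, 1.43 and 0.861 CPM in mesenchyme-like cells, and its highest level was 19.1 CPM from 22 UMIs in 52 endothelial-like cells at E11.5. Adamtsl4, with 83 UMIs in all, had too few for the first comparison.

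Counted over cell classes, mesenchyme-like cells had 4, 18 and 22 members past 4-fold higher than in the other classed cells at the 3 stages. These are of 51 members, of which 26, 34 and 37 had the 20 UMIs in mesenchyme-like cells that the rule asks for, and 3.46%, 6.45% and 8.18% of all such genes were called. Because the minimum is on the class itself, a gene found mainly there passes more easily. Over all classes and mesenchymal subclasses, 11 pairs of a member and a class were past 4-fold in every library with 50 or more cells of the class. They were Adamts9 and Mmp2 in mesenchyme-like cells (2.1% of genes called), Timp3 and Adamts5 in Schwann and neural crest-like cells (2.06%), Mmp24 in neuron-like cells (7.75%) and Mmp15 in endothelial-like cells (5.25%). The others were Mmp9 in mural-like cells (0.627%), Mmp23 and Adamts5 in mesothelium-like cells (3.36%), Adamtsl3 in tendon-like cells (0.643%) and Timp4 in brown adipose precursor-like cells (0.267%). Mesothelium-like, tendon-like and brown adipose precursor-like cells reached 50 in 1 library each. In the remaining classes no member was past 4-fold in every library, but few had the 20 UMIs in each. There were 10 such members in muscle progenitor-like (0.35% of all such genes called), 3 in myocyte-like (2.96%), 14 in neural progenitor-like (1.91%), 2 in macrophage-like (10.1%) and 5 in epidermis-like cells (2.54%). Erythroid-like cells had 0 (3.05%), so no call was possible there. Of the subclasses, 12 members had enough UMIs in sclerotome-like (0.337%), 10 in chondrogenic-like (0.191%), 16 in dermal-like (0.159%) and 10 in meningeal-like cells (0.277%). Pairs past 4-fold in 1 library included Timp4 (log2 ratio 3.92), Mmp15 (2.33) and Mmp17 (2.30) in neural progenitor-like cells at E12.5, Adamtsl2 in endothelial-like cells at E11.5 (6.06), Adamts15 in muscle progenitor-like cells at E11.5 (2.64), Mmp9 in macrophage-like cells at E13.5 (3.08) and Timp1 in mural-like cells at E13.5 (2.56). Of 29 members with enough UMIs, 13 had their highest level in the same one of 7 classes in all 3 libraries, 6 of them in mesenchyme-like and 5 in Schwann and neural crest-like cells. These 7 classes had 50 or more cells in all 3 libraries, so mural-like, endothelial-like and some other classes were not ranked. Timp1, counted as highest in mesenchyme-like cells, was higher in mural-like cells at E12.5 and E13.5. Mmp15, counted for Schwann and neural crest-like cells, was higher in endothelial-like cells at E11.5.

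**Figure D5:**
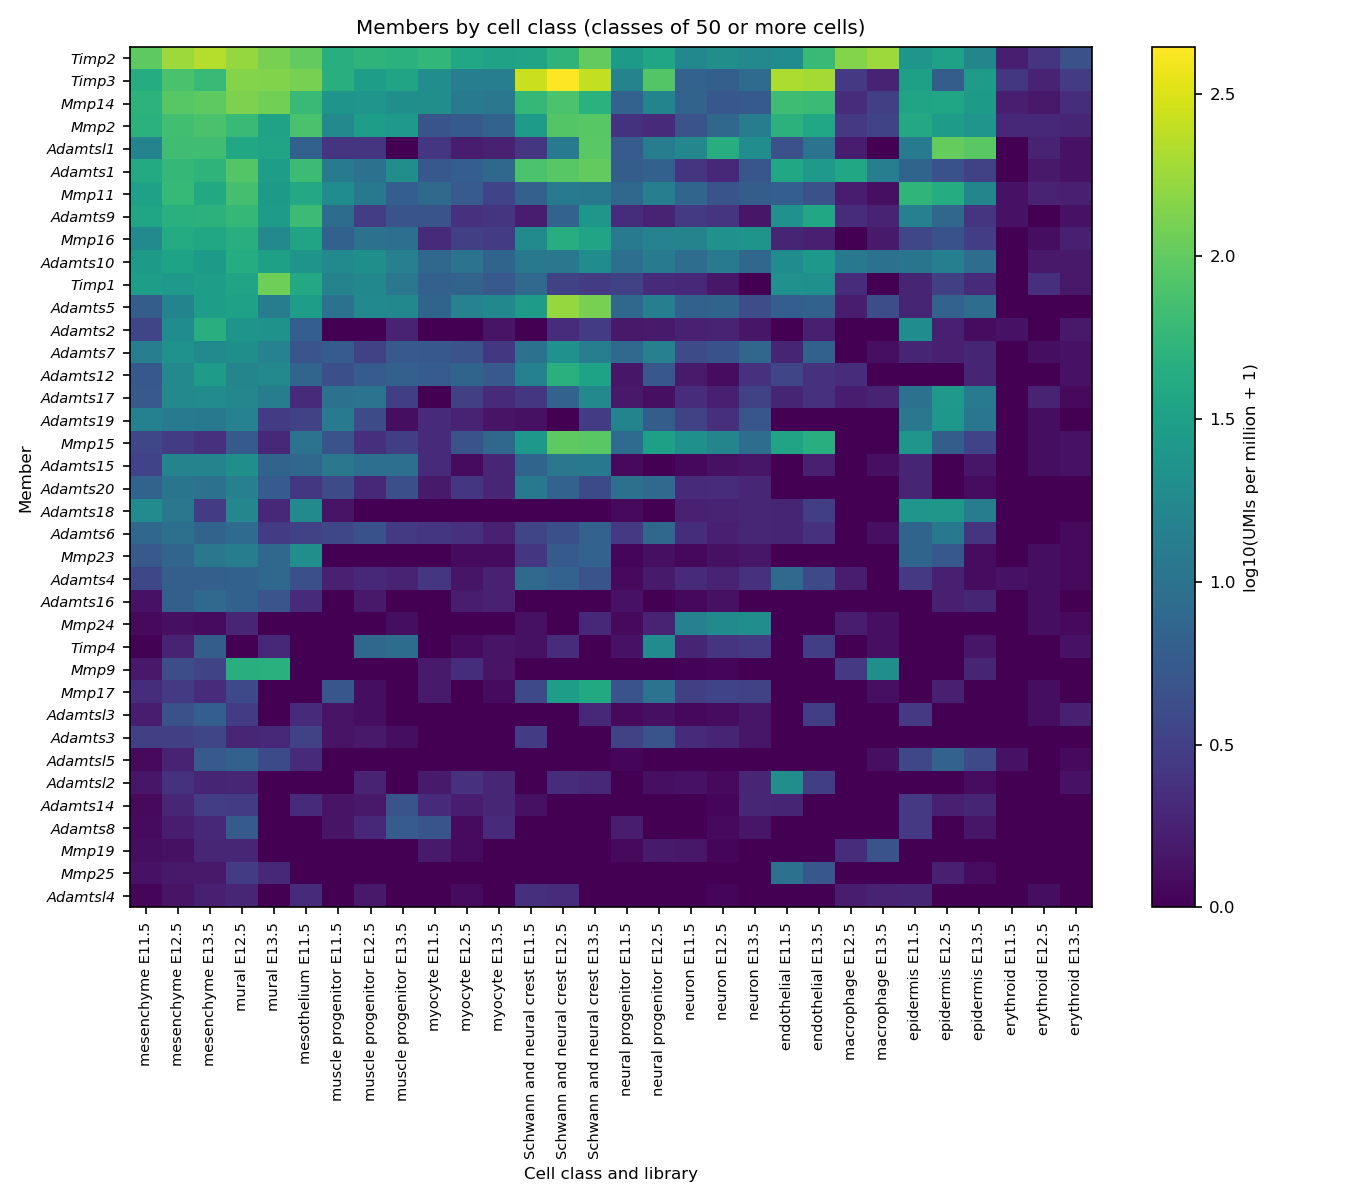
Levels of the 38 members with 50 or more UMIs (colour, log10 of CPM plus 1) by cell class and library, for classes of 50 or more cells. Mmp24 is bright in the neuron columns alone, Mmp17 is brightest in the E12.5 and E13.5 Schwann and neural crest columns, and the erythroid columns are dark for all members.

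Brown adipose precursor-like cells, with 3 of the markers Ebf2, Pparg, Cebpa, Gata6 and Fabp4, reached 50 cells only at E13.5 (62 cells, 47 of them at the minimum of 3 markers). Timp4 stood at 29.3 CPM (19.7 to 42.1) there against 4.50 CPM in the rest of the mesenchyme, a log2 ratio of 2.71 (2.09 to 3.27) from 29 UMIs. Mmp2 was 113 CPM against 74.8 CPM, a log2 ratio of 0.60 (0.31 to 0.87). Members lower there by 4-fold or more were Timp3 (6.07 against 60.9 CPM, log2 ratio -3.33, -4.77 to -2.20), Mmp11 (8.09 against 39.8 CPM), Adamts5 (6.07 against 29.3 CPM), Adamtsl1 (14.2 against 68.4 CPM) and Adamts2 (11.1 against 46.0 CPM). Each of them had under 20 UMIs in these cells, which held 988378 UMIs in all. The share of all genes that were 4-fold lower there is not given, so these members have no background to be set against. Adamts20 had 1 UMI there. Timp2 was 113 CPM against 227 CPM (interval of the log2 ratio -1.28 to -0.73). These cells were chosen by UMIs of their markers and were deeper than the mesenchyme as a whole, with a median of 15044 UMIs, and the part of depth in the ratios was not tested.

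Genes that act with the family were read in the same cells. Their lists were chosen with earlier results of these data known, so the counts below describe the lists and test nothing. Of 13 activators and surface regulators, 4 were at least 2-fold higher at E12.5 than at E11.5 and 0 lower, against 12.3% and 2.35% of all genes. They were Pcsk6, a proprotein convertase, Cd44, a hyaluronan receptor, A2m, a broad protease trap, and Reck, a membrane-anchored Mmp inhibitor, which went from 14.3 to 30.1 CPM. At the next step 3 of the 13 were higher, Pcsk6, Plaur and Cd44, against 4.18% of all genes. Cd44 went from 9.75 to 45.6 CPM (log2 ratio 2.23, 2.06 to 2.39). Of 15 other matrix proteases, 13 had enough UMIs and 6 were higher at E12.5 (12.3% of all genes): Adam12, Adam33, Bmp1, Tll1, Htra1 and Ctsk. Bmp1, the procollagen C-proteinase, went from 31.7 to 63.6 CPM. At E13.5 3 of 13, Adam33, Htra1 and Fap, were higher than at E12.5, against 4.18% of all genes. Of 8 other inhibitors and enhancers, 7 had enough UMIs. Sparc alone was higher at the first step (347 to 841 CPM), against 12.3% of all genes. Spock1 alone was lower at the second (3.08 to 0.779 CPM), against 4.97%. Among the proteoglycan substrates Acan was 0.738, 5.35 and 1.95 CPM, higher and then lower.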

How the data were processed

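Raw UMI counts, as deposited, were the starting point, and per the submitters' processing notes Cell Ranger 8.0.1 and GRCm39 were used; the annotation release and the use of strand are not given in the sources used here. Library totals were 103383215, 94155624 and 113402193 UMIs from the first stage to the third, of which 89.3%, 85.8% and 78.7% lay in cells. Barcodes with 4000 or more UMIs were taken as cells, with no further filter. The members and lists were chosen with earlier results of these data known.

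A marker was taken as present in a cell when its UMIs passed the 99th Poisson percentile of what 25% free RNA would give, free RNA being droplets of 50 to 500 UMIs. A class needed 3 markers present (muscle progenitor-like 2), a mesenchymal subclass between 2 and 5, with thresholds set on class sizes; cells of several classes (198, 193 and 307) were left out. Scrublet in scanpy 1.11.5 called 196, 120 and 166 doublets, which were kept in and left out as an alternative. UMIs were summed per class and library, and log2 ratios carry exact conditional binomial 95% intervals; calls used ratios with 0.5 UMIs added and the minimum of 20 UMIs. Cells are not replicates, so no p-value was computed. The ratio calls were run on simulated Poisson counts with known changes in genes of 50 or more UMIs at E11.5 (numpy 2.4.6, scipy 1.17.1). The simulation held no difference between libraries and no change in genes with fewer UMIs, so it does not test the calls in those respects.

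Named were the 12 members with the most UMIs, those past 2-fold between stages (the 10 largest changes if more), the 3 leading members of each class, all Timp genes, Mmp2, Mmp14, the procollagen N-proteinases and the proteoglycan-cleaving Adamts genes, with pathway genes past 2-fold; the others named were chosen after their values were seen. Alternatives were a minimum of 8000 UMIs, filters on genes and mitochondrial UMIs, 1 marker more, free RNA subtracted, doublets left out, cells with Xist but no Y-linked UMI, named subclasses left out, a gene minimum of 50 UMIs, median centring and thinning. RefSeq promoters are of GRCm38.p6, another build than the counts, and were matched by symbol.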

Additional observations from a re-analysis of the deposited data

Results flagged for a closer look

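Adamts1 and Adamtsl1 moved in opposite directions in different cell classes between E12.5 and E13.5, by 2-fold or more and with 50 or more UMIs over both libraries. With 1 library per stage the difference between classes was not tested. The log2 ratio of Adamts1 was 1.08 in muscle progenitor-like cells (8.99 to 19.0 CPM, 0.48 to 1.71), -1.55 in macrophage-like cells (36.5 to 12.49 CPM, -2.13 to -0.97) and -1.59 in mural-like cells (85.9 to 28.5 CPM, -2.25 to -0.98). The log2 ratio of Adamtsl1 was 2.99 in Schwann and neural crest-like cells (11.49 to 91.3 CPM, 2.05 to 4.10, from 10 and 94 UMIs) and -1.20 in neuron-like cells (43.2 to 18.7 CPM, -1.70 to -0.75). In mesenchyme-like cells Adamts1 went from 57.1 to 51.0 CPM and Adamtsl1 from 67.1 to 67.3 CPM.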

How the results depend on the processing

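No call between stages or classes changed sign. Of the 21 calls of single members between stages, 1 fell under 2-fold where it could still be compared: Mmp19 between E12.5 and E13.5, with a log2 ratio of 0.9614 in thinned cells. Others were no longer compared for lack of UMIs, all at the first step: 5 (Adamts8, Adamts14, Adamtsl2, Adamtsl5 and Timp4) in thinned cells and among Xist cells without Y-linked UMIs, 4 of these at a minimum of 50 UMIs and 1 without the named subclasses. Among cells holding Xist but no Y-linked UMI, 1 member (Mmp15) was lower at E12.5 than at E11.5, against 0 in all mesenchyme-like cells. With 50 UMIs required in the class, 5 of the 11 pairs of member and class past 4-fold were left, since fewer genes were tested. The summed level of all members in mesenchyme-like cells was 909.2 CPM at E12.5 and 963 CPM at E13.5 with a minimum of 8000 UMIs, and 531 CPM at E11.5 with 1 marker more, and the cause was not tested. It was 552, 966 and 1029.97 CPM from the first stage to the third with free RNA subtracted, and the cause was not tested. The share of mesenchyme-like cells with Mmp2, Mmp14 and Timp2 was 17.5%, 30.8% and 26.2% with all UMIs of each cell in place of 4000, which turns the order of E12.5 and E13.5. Classes of about 50 cells limit members under about 20 CPM to few UMIs. No paired analysis was possible because each stage has 1 library.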
